A study of Mus musculus with 8 samples.

Results

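The genes described here are the V genes of the T cell receptor alpha chain, which are all genes of the mouse feature list whose symbol starts with Trav: 128 of 32285 genes. For each T barcode the Trav gene with the most unique molecular identifiers (UMIs, tags that mark single RNA molecules) was taken as the V gene of that cell, and usage is the share of barcodes led by each gene. A T barcode had at least 2 UMIs summed over the CD3 genes Cd3d, Cd3e and Cd3g, a total of 500 UMIs or more from 300 genes or more, and no more than 10% of its UMIs from mitochondrial genes. There were 16216 such barcodes with 72872 Trav UMIs.

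A T cell receptor alpha chain is built during T cell development by joining a V gene to a J gene. The variable end it forms with the beta chain decides which peptide a T cell recognises. CD4 T cells are selected on MHC class II molecules and CD8 T cells on MHC class I molecules. Because daughter cells keep the rearranged gene of their parent, cells of an expanded clone share their V genes. Some Trav genes, whose symbols carry dv, can also be joined into the delta chain of gamma-delta T cells. In the mouse the Trav genes lie in blocks that were copied as a whole, so that many genes have near-identical copies marked d or n.

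Single-cell expression was measured in CD45-positive leukocytes sorted from the submandibular gland, a large salivary gland, and from its draining lymph nodes, in 4 mice labelled SS and 4 controls, aged about 12 weeks; what SS stands for is not said, and no strain or treatment is named. The 8 labelled samples are 4 expression libraries and 4 receptor libraries, with 1 of each for every pairing of genotype (SS or control) and tissue, and whether mice were pooled is not stated; the receptor libraries were not analysed here. Glands were digested with collagenase at 37 °C and nodes were only triturated. No label ties any of the 4 expression libraries, called C1 to C4, to its genotype or tissue, so each library is described alone, no SS or tissue comparison was made, and no test was possible without replicates.

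The libraries held between 37902916 and 77819179 UMIs. C1 gave 1140 T barcodes (median depth 6192 UMIs), C2 gave 3631 (4967 UMIs), C3 gave 7546 (8312 UMIs) and C4 gave 3899 (6178 UMIs), and pairs of libraries shared between 2 and 47 T barcode sequences, at most 1.21% of the smaller library. Shares are given with exact Clopper-Pearson 95% intervals, which cover counting error only and not the spread between mice. No doublets were removed.

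At least 1 Trav UMI was found in 55.8% (52.9 to 58.7%) of T barcodes in C1. C2 was at 81.5% (80.2 to 82.8%), C3 at 81.8% (80.9 to 82.6%) and C4 at 83.3% (82.1 to 84.5%). When each barcode was thinned to 3484 UMIs, leaving out 101, 668, 570 and 282 shallower barcodes, the shares were 48.0%, 78.3%, 68.0% and 74.7%. C1 was the lowest library at both depths. C3, the deepest, was below C4 at both depths and moved below C2 after thinning. Barcodes with at least 2 UMIs of B cell markers and no CD3 UMI, in which the alpha chain should be absent, served as background. They held a Trav UMI in 0 of 94 in C1 (interval up to 3.85%) and 2 of 25 in C2. The shares were 1.17% of 681 in C3 and 0.754% of 1858 in C4. Median depths were 6280, 32500, 5209 and 3894 UMIs in C1 to C4. Macrophage barcodes were at 1.25% of 2718, 1.37% of 437, 1.37% of 73 and 0 of 12. Barcodes of 50 to 199 UMIs, which hold free RNA, had 9.27, 57.0, 213 and 280 Trav UMIs per 1000000 UMIs (CPM), against 357, 820, 510 and 682 CPM in T barcodes.

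**Figure D1:**
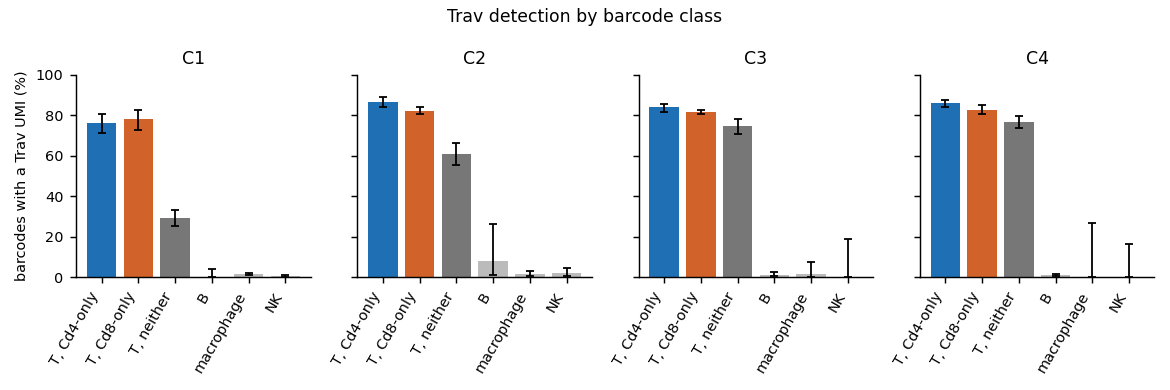
Share of barcodes with at least 1 Trav UMI (percent, with 95% counting intervals) by class in each library. Trav UMIs were found in 76.0 to 86.4% of Cd4-only and 77.9 to 82.7% of Cd8-only T barcodes, and in few B, macrophage or NK barcodes; T barcodes with neither lineage gene were at 29.2% in C1.

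A T barcode was called Cd4-only when it held a Cd4 UMI and none of Cd8a or Cd8b1, and Cd8-only in the reverse case. Trav UMIs were found in 76.0%, 86.4%, 83.7% and 85.8% of Cd4-only barcodes in C1 to C4 and in 77.9%, 82.2%, 81.6% and 82.7% of Cd8-only barcodes. T barcodes with UMIs of neither lineage were at 29.2% (25.3 to 33.3%) in C1, against 60.7%, 74.5% and 76.6% in the other libraries in order. In C1 these made up 44.8% of T barcodes, 72.2% of them had a UMI of the NK markers Ncr1, Klrb1c or Klre1 and 15.3% had a Trdc UMI, the constant gene of the delta chain; the part of such cells in the low C1 share was not tested. NK marker UMIs also occurred in 29.6% of C1 Cd8-only and 4.26% of C1 Cd4-only barcodes.

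Usage was counted over the barcodes with a single leading Trav gene; 4.40 to 11.4% of those with a Trav UMI had a tie and were left out. This gave 239 Cd4-only and 199 Cd8-only barcodes in C1, 643 and 1815 in C2, 1017 and 4121 in C3, and 1313 and 836 in C4. In 6 of the 8 combinations of library and lineage the leading gene held all Trav UMIs of the median barcode, and in C4 it held 83.3% in Cd4-only and 90.7% in Cd8-only barcodes.

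Of the 128 Trav genes, 109 had a UMI in some T barcode, 95 led at least 1 Cd4-only or Cd8-only barcode and 33 led none. In the RefSeq table for GRCm38.p6, the mm10 assembly, which names all 128, 16 are listed as pseudogenes; 11 of these had no UMI in any T barcode and 13 led no barcode. Of the 112 listed as intact V segments, 8 had no UMI, and all 8 were copies marked d (5) or n (3). The 55 genes without a copy mark led 69.7 to 77.0% of barcodes, the 39 marked d 8.54 to 15.2% and the 34 marked n 10.0 to 21.1%. No source used here says how reads that match several copies were counted, so the split between near-identical copies is uncertain throughout.

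No single gene dominated. The effective number of genes, the exponential of the Shannon entropy of usage, was 38.3 in Cd4-only and 34.8 in Cd8-only barcodes of C1, 46.1 and 44.4 in C2, 52.3 and 50.8 in C3, and 51.5 and 52.2 in C4. The 5 leading genes held 30.1% (24.4 to 36.4%) of Cd4-only and 36.2% (29.5 to 43.3%) of Cd8-only barcodes in C1, 27.7% and 25.2% in C2, 21.6% and 24.4% in C3, and 23.5% and 22.8% in C4. C1, which had the fewest barcodes, had the lowest effective numbers and the highest leading-5 shares. Drawn down to 199 barcodes each, the number of genes expected was 53.4 and 53.0 in C1, 55.8 and 52.2 in C2, 57.3 and 55.7 in C3, and 57.7 and 58.2 in C4, while the numbers of genes seen at full depth ran from 53 to 90.

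Trav6-7-dv9 (chr14:53709943-53710419, a V segment), a gene that alpha and delta chains can both use, had the highest median share over the 8 combinations, 5.23%. It led 5.44%, 5.60%, 5.11% and 7.24% of Cd4-only barcodes in C1 to C4 and 2.51%, 5.34%, 4.05% and 4.90% of Cd8-only barcodes, with overlapping intervals in each library. It was the most used gene of Cd4-only barcodes in C3 and C4.

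Trav12-2 (chr14:53616397-53616914) was the most used gene of Cd8-only barcodes in 3 libraries, C2 to C4, and its share was 5.40% (4.41 to 6.54%) in C2. It reached 5.82% (5.13 to 6.58%) in C3, and C4 had 5.50% (4.06 to 7.27%). In C1 it led 3.02% of Cd8-only barcodes. Its shares of Cd4-only barcodes were 2.09%, 0.778%, 2.75% and 3.20%, lower than those of Cd8-only barcodes in all 4 libraries, with intervals apart in C2 and C3. With each combination of Trav and beta chain V gene (Trbv) counted once, all 4 libraries overlapped. In C3 the direction turned, at 2.59% of Cd4-only and 1.93% of Cd8-only combinations. This count caps a gene at the number of Trbv genes and so evens out frequent genes. Overlap under it does not show that a difference is absent.

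The other most used genes led in 1 library each. Trav6-5 (chr14:53491152-53491622) led 9.62% (6.20 to 14.1%) of Cd4-only barcodes in C1 against 1.97 to 2.89% in the others. Trav9-1 (chr14:53488106-53488567) led 9.80% (7.61 to 12.4%) of Cd4-only barcodes in C2 against 0.837 to 2.67% in the others. Trav13-1 (chr14:53545014-53545525) led 11.6% (7.47 to 16.8%) of Cd8-only barcodes in C1, and 4.85%, 5.17% and 2.99% in C2 to C4. In each of the 3 cases the interval of the high library lay above those of the other libraries, whose upper bounds were 4.01% at most for Trav6-5, 3.69% for Trav9-1 and 5.94% for Trav13-1. Frequent pairings with a Trbv gene held part of the barcodes behind these high shares. Leaving out the 10 most frequent Trav and Trbv combinations of each lineage, picked from the same barcodes, lowers such shares largely by construction. Under this alternative, chosen after seeing the data, the shares were 4.57% for Trav6-5, 3.11% for Trav9-1 and 4.17% for Trav13-1. With each combination counted once, which caps a gene at the number of Trbv genes, they were 4.70%, 2.39% and 7.32%.

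**Figure D2:**
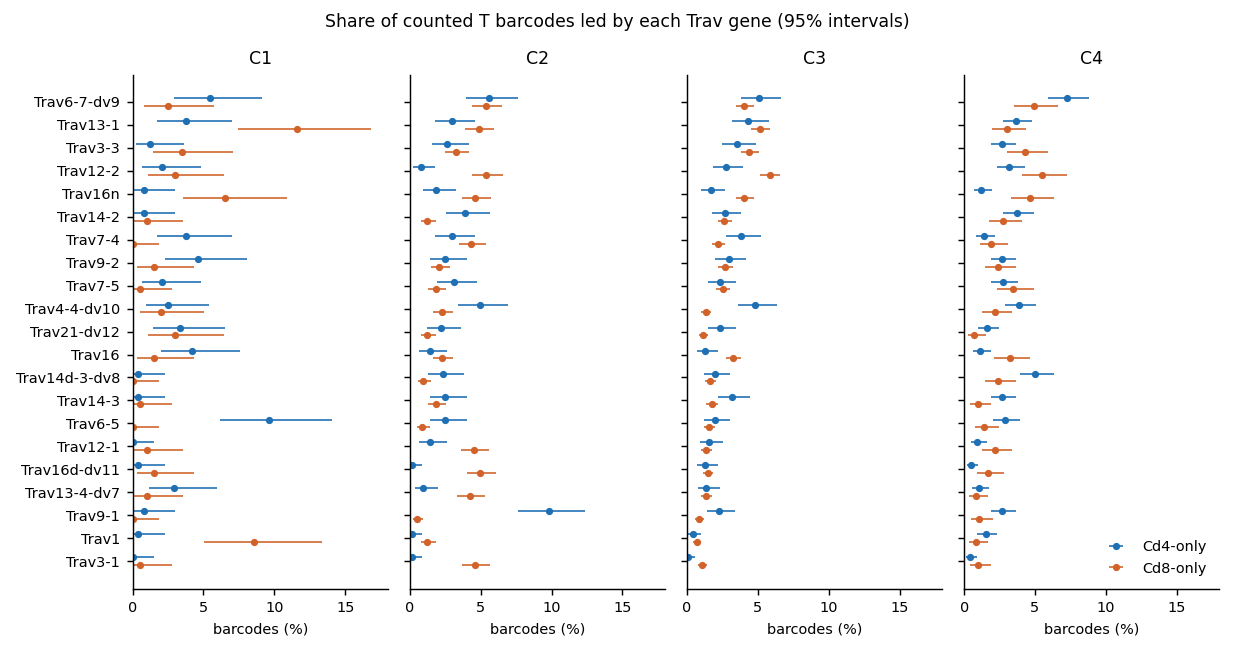
Share of counted barcodes (percent, with 95% counting intervals) led by each of the Trav genes named by rule whose highest share passed 2%, in Cd4-only (blue) and Cd8-only (orange) T barcodes of each library. Trav6-5 and Trav13-1 stand out in C1 at 9.62% and 11.6%, Trav9-1 in C2 at 9.80%, and Trav16n is higher in Cd8-only barcodes in every panel.

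The largest ratios between libraries, among genes that led at least 20 barcodes in their highest library, were as follows. In Cd4-only barcodes Trav14d-3-dv8 ran from 0.418% in C1 to 5.03% in C4 (12.0 times), Trav9-1 from 0.837% to 9.80% (11.7 times), Trav1 from 0.156% in C2 to 1.52% in C4 (9.79 times) and Trav14-3 from 0.418% in C1 to 3.15% in C3 (7.52 times). In Cd8-only barcodes Trav3-1 ran from 0.503% in C1 to 4.57% in C2 (9.10 times), Trav7-5 from 0.503% in C1 to 3.47% in C4 (6.90 times), Trav13-4-dv7 from 0.837% in C4 to 4.24% in C2 (5.07 times) and Trav12-1 from 1.01% in C1 to 4.52% in C2 (4.50 times). The lowest value rested on 1 or 2 barcodes in all of these except Trav13-4-dv7 (7 barcodes).

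Among the remaining genes of high median share, Trav3-3 led 1.26 to 4.39% of barcodes over the 8 combinations, Trav14-2 0.837 to 3.89%, Trav7-4 0 to 4.35% and Trav9-2 1.51 to 4.6%. Trav7-4 led none of 199 Cd8-only barcodes in C1, with an interval up to 1.84%, and 3.77% of Cd4-only barcodes there.

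Across the 128 genes, usage was most alike between C3 and C4, with a Pearson r of 0.91 between their Cd8-only and 0.89 between their Cd4-only shares. Within a library, Cd4-only and Cd8-only usage had r of 0.80 in C3, 0.80 in C4, 0.45 in C2 and 0.35 in C1. C1 against the other libraries gave 0.30 to 0.64. These are descriptions across genes that share libraries and counting error, and C1 has the fewest barcodes.

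The second comparison was between Cd4-only and Cd8-only barcodes within a library. To set the Trav genes against all genes, the same lineages were first compared gene by gene on summed UMIs, over genes with at least 100 UMIs in both lineages together. At least a 2-fold difference in CPM was seen in 4.84% of 5522 genes in C1, 5.84% of 9245 in C2, 17.7% of 10440 in C3 and 4.02% of 8911 in C4. Among Trav genes it was seen in 1 of 4, 25 of 47, 26 of 56 and 17 of 43. The median absolute log2 difference was 0.54, 1.05, 0.95 and 0.74 for Trav genes and 0.25, 0.18, 0.45 and 0.18 for all genes. Each Trav gene is carried by a small part of the cells, and the part of this in the difference was not tested.

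On shares of barcodes with a UMI, intervals lay apart with Cd4-only higher in 3.59%, 5.0%, 12.6% and 2.95% of all those genes in C1 to C4, and with Cd8-only higher in 7.73%, 11.1%, 42.3% and 27.2%; Cd8-only barcodes were the deeper in every library, with medians of 6645 against 5434, 5164 against 4495, 8958 against 5129 and 7365 against 5950 UMIs. For Trav genes the counts were 0, 8, 7 and 3 with Cd4-only higher and 0, 7, 5 and 2 with Cd8-only higher. The Cd8-only counts of 5 of 56 in C3 and 2 of 43 in C4 were smaller shares than the 42.3% and 27.2% of all genes.

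On usage, the intervals of the 2 lineages lay apart for 2 genes with Cd4-only higher and 3 with Cd8-only higher of 69 leading genes in C1, 7 and 8 of 83 in C2, 5 and 7 of 91 in C3, and 1 and 2 of 84 in C4. Over the 4 libraries 26 genes lay apart at least once. Of these, 7 did so in at least 2 libraries in the same direction, and none lay apart in opposite directions. The direction without regard to intervals was not always kept over the 4 libraries. Trav10 was higher in Cd4-only barcodes in all 4. Trav13-4-dv7, apart with Cd8-only higher in C2 alone, was higher in Cd4-only barcodes in the 3 others. Trav6d-4, Trav8d-2 and Trav7-4 pointed each way in 2 libraries. Without the 10 most frequent Trav and Trbv combinations of each lineage, the genes with intervals apart numbered 0, 7, 10 and 2 in C1 to C4, and 18 of the 35 calls stayed apart. With each combination counted once no gene had intervals apart in any library, and 4 of the 35 differences turned. The cap in that count brings frequent genes close together, so it cannot decide whether the calls hold. In C3 Cd8-only barcodes Trav12-2 led 240 barcodes but 20 combinations, and Trav6-7-dv9 led 167 barcodes but 22 combinations.

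Trav16n (chr14:53351090-53351621), the n copy of Trav16, was higher in Cd8-only barcodes with intervals apart in 4 of 4 libraries. It led 0.837% (0.102 to 2.99%) of Cd4-only and 6.53% (3.52 to 10.9%) of Cd8-only barcodes in C1, 1.87% and 4.63% in C2, 1.67% and 4.05% in C3, and 1.22% (0.698 to 1.97%) and 4.67% (3.34 to 6.32%) in C4. The C1 values rested on 2 and 13 barcodes. Leaving out the 10 most frequent combinations kept Cd8-only higher by 0.941, 3.53, 2.05 and 1.52 percentage points, with intervals apart in C2 and C3 only. With each combination counted once, under the cap given above, the intervals overlapped in all 4 libraries. The shares in C3 were then 1.85% of Cd4-only and 1.84% of Cd8-only combinations. In C1, 10 of the 13 barcodes were of 2 combinations, with Trbv1 (7) and Trbv12-2 (3).

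Its near copies pointed the same way except in 1 library. Trav16 (chr14:53743174-53743705) led 1.28% of Cd4-only and 3.25% of Cd8-only barcodes in C3 and 1.14% and 3.23% in C4, with intervals apart, and 1.4% and 2.26% in C2 with overlap; in C1 it was at 4.18% and 1.51%, with overlap. Trav16d-dv11 was at 0.418% and 1.51% in C1, 0.156% and 4.96% (4.01 to 6.06%) in C2, 1.28% and 1.46% in C3, and 0.457% and 1.67% in C4, with intervals apart in C2. Summed over the 3 copies, which removes the doubt about which copy a read came from, Trav16 led 5.44% of Cd4-only and 9.55% of Cd8-only barcodes in C1, 3.42% and 11.8% in C2, 4.23% and 8.76% in C3, and 2.82% and 9.57% in C4. The intervals of this sum lay apart in C2, C3 and C4 and overlapped in C1.

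Trav3-1 (chr14:52580762-52581213) was also higher in Cd8-only barcodes, with 1 Cd4-only and 83 Cd8-only barcodes in C2 (0.156% and 4.57%) and 1 and 44 in C3 (0.0983% and 1.07%). In C1 it led 0 and 1 barcodes and in C4 5 and 8, with overlap. Without the 10 most frequent combinations its intervals stayed apart in C3 and overlapped in C2. With each combination counted once, under the same cap, they overlapped in both.

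The Cd4-only side held Trav9-1, Trav6-5 and Trav4-4-dv10. Trav9-1 led 9.80% of Cd4-only and 0.496% of Cd8-only barcodes in C2, 2.26% and 0.849% in C3, 2.67% and 1.08% in C4, and 0.837% and 0 of 199 in C1, with intervals apart in C2 and C3. Trav6-5 led 9.62% and 0 of 199 in C1, 2.49% and 0.881% in C2, 1.97% and 1.53% in C3, and 2.89% and 1.44% in C4, with intervals apart in C1 and C2. Trav4-4-dv10 (chr14:53683677-53684177) led 4.98% and 2.26% in C2 and 4.82% and 1.31% in C3, with intervals apart, and 2.51% and 2.01% in C1 and 3.88% and 2.15% in C4, with overlap. All 3 were higher in Cd4-only barcodes in 4 of 4 libraries. Without the 10 most frequent combinations, intervals stayed apart for Trav9-1 in C2 and for Trav4-4-dv10 in C2 and C3, and overlapped for Trav9-1 in C3 and for Trav6-5 in C1 and C2. With each combination counted once, under the same cap, none of these calls stayed apart. Trav4-4-dv10 was then at 2.69% of Cd4-only and 3.25% of Cd8-only combinations in C1.

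**Figure D3:**
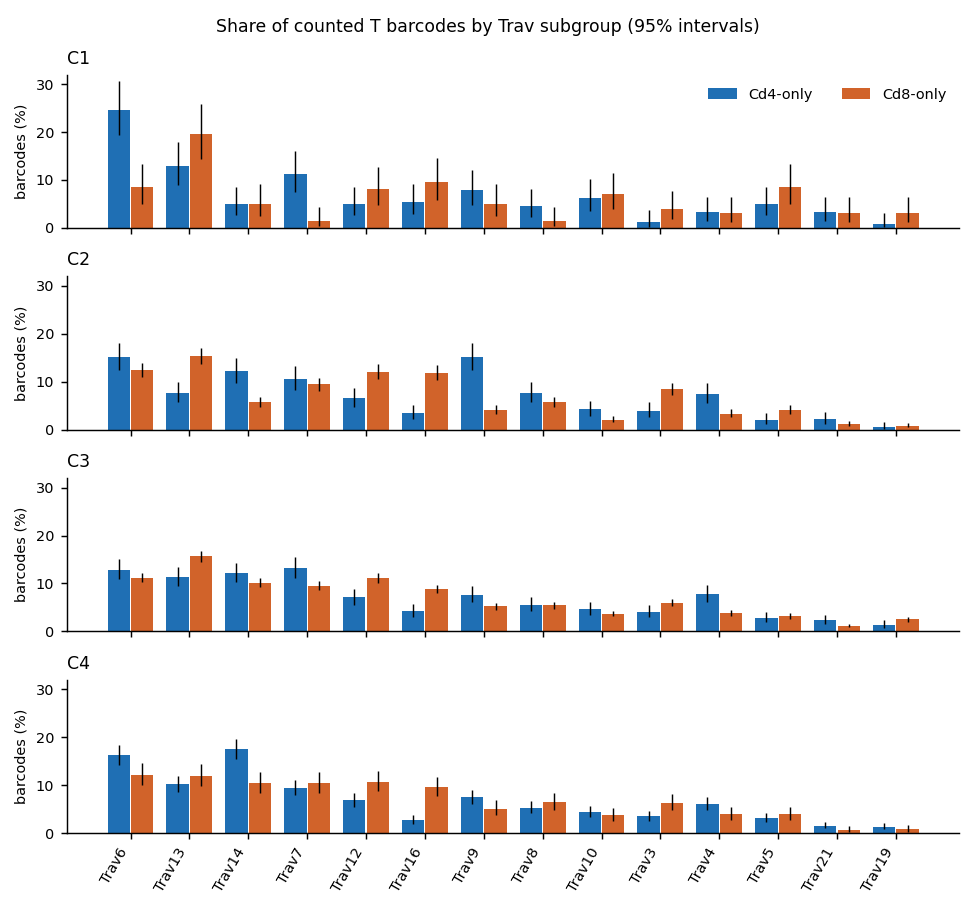
Share of counted barcodes (percent, with 95% counting intervals) by Trav subgroup, the number after Trav that joins a gene with its copies, in Cd4-only (blue) and Cd8-only (orange) barcodes. Trav16 and Trav12 are higher in Cd8-only barcodes in C2 to C4, and Trav6 stands at 24.7% of Cd4-only barcodes in C1.

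Joined into 23 subgroups, Trav12 showed the same direction as Trav16, with 6.53% of Cd4-only and 12.0% of Cd8-only barcodes in C2, 7.08% and 11.1% in C3 and 6.85% and 10.8% in C4, all with intervals apart, and 5.02% and 8.04% in C1 with overlap. Trav13 was higher in Cd8-only barcodes in C2 (7.62% and 15.3%) and C3 (11.3% and 15.7%). Trav3 was so in C2 (3.89% and 8.43%) and C4 (3.58% and 6.34%). The Cd4-only side had Trav9 in C2 (15.1% and 4.08%) and C3 (7.67% and 5.22%), Trav4 in C2 (7.47% and 3.31%) and C3 (7.77% and 3.79%), Trav14 in C2 (12.1% and 5.73%) and C4 (17.5% and 10.4%), and Trav7 in C1 (11.3% and 1.51%) and C3 (13.3% and 9.56%). Trav6 was apart in C1 alone, with 24.7% (19.4 to 30.7%) and 8.54% (5.06 to 13.3%). The other subgroups with intervals apart were Trav1 with Cd8-only higher in C1 and Trav21 with Cd4-only higher in C3, and none had intervals apart in opposite directions. Subgroup shares were not recounted without the frequent Trav and Trbv combinations. In Cd8-only barcodes, Trav3-1 with Trbv26 held 62 of 153 Trav3 barcodes in C2. Trav13-2 with Trbv20 held 117 of 645 Trav13 barcodes in C3. In Cd4-only barcodes of C2, Trav9-1 with Trbv13-2 held 47 of 97 Trav9 barcodes. The part of such combinations in these calls was not tested.

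Pairing with the beta chain was then described through the leading Trbv gene of the same barcode, which was found singly in 194 to 3973 counted barcodes per combination of library and lineage. The 10 most frequent Trav and Trbv combinations held 28.1% (22.3 to 34.4%) of Cd4-only and 28.4% (22.1 to 35.3%) of Cd8-only barcodes in C1, and 20.7% (17.6 to 24.1%) and 21.6% (19.7 to 23.6%) in C2. In C3 they held 7.47% and 8.99%, and in C4 6.38% and 7.02%. The products of the separate Trav and Trbv shares for the same combinations came to 5.25% and 8.59% in C1, 3.64% and 2.98% in C2, 3.36% and 3.70% in C3, and 3.86% and 3.52% in C4. Because the 10 were picked as the most frequent, some excess over the product is built in. Drawn down to 194 barcodes, the expected number of different combinations was 131 and 123 in C1, 141 and 126 in C2, 166 and 163 in C3, and 167 and 172 in C4.

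**Figure D4:**
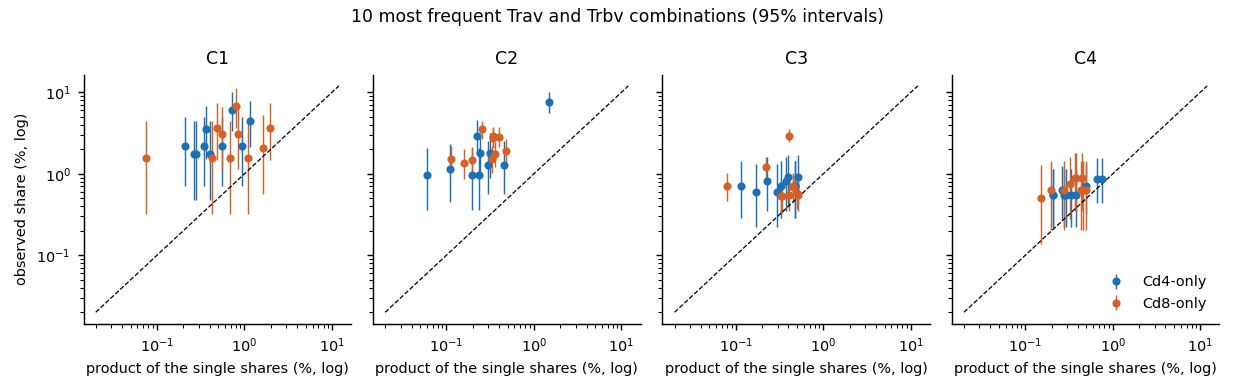
Observed share of the 10 most frequent Trav and Trbv combinations of each lineage and library (percent, log axis, with 95% counting intervals) against the product of the separate shares of both genes (percent, log axis); the dashed line is equality. The points of C4 sit nearest the line, and the Cd4-only point of C2 at 7.61% is Trav9-1 with Trbv13-2.

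In C2, the high Trav9-1 share of Cd4-only barcodes came with 1 beta gene. Trav9-1 with Trbv13-2 led 47 of 618 barcodes, against 9.26 from the product, and held 79.7% of the Trav9-1 barcodes. Of the 13 with a UMI of an alpha J gene, 12 had Traj17. Without the 10 most frequent combinations of each lineage, Trav9-1 led 3.11% of Cd4-only barcodes there and its intervals still lay apart from those of Cd8-only barcodes. Trav8d-1 with Trbv16 led 18 barcodes in the same lineage (1.39 from the product), and all 5 with a Traj UMI had Traj18.

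In C2 Cd8-only barcodes, Trav3-1 with Trbv26 led 62 of 1762 (4.50 from the product), with Traj23 in 6 of 7 barcodes that had a Traj UMI and Trbj2-3 in 6 of 8 that had a leading Trbj gene. Trav12-2 with Trbv20 led 51 (5.99 from the product), with Traj31 in 5 of 5 and Trbj1-3 in 4 of 4. Trav7-4 with Trbv12-1 led 50 (6.99) and Trav12-1 with Trbv29 led 49 (6.02). These 4 combinations held 77.5%, 53.7%, 63.3% and 60.5% of the barcodes of their Trav gene.

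C1 had smaller sets of the same kind. Trav1 with Trbv5 led 13 of 194 Cd8-only barcodes (1.57 from the product), which were 81.3% of the Trav1 barcodes. Trav6d-4 with Trbv13-3 led 14 of 228 Cd4-only barcodes (1.65 from the product). Trav13-1 in Cd8-only barcodes was spread over Trbv12-2 (7, with 3.79 from the product), Trbv3 (6, with 1.07) and Trbv29 (4, with 3.20).

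In C3, Trav13-2 with Trbv20 led 117 of 3973 Cd8-only barcodes (2.94%, 2.44 to 3.52%; 16.3 from the product), 58.5% of the Trav13-2 barcodes, and all 5 with a leading Trbj gene had Trbj2-4. Trav9-2 with Trbv20 led 48 (8.89 from the product) and Trav8-2 with Trbv20 led 28 (3.18). The last 2 may not be separate sets. In C3, 44 barcodes with Trbv20 held both Trav9-2 and Trav8-2, and a barcode is counted under its leading gene. In C4 no combination led more than 11 barcodes, and the highest were Trav6-7-dv9 with Trbv13-2 and with Trbv5, at 11 of 1270 Cd4-only barcodes each, against 9.52 and 8.35 from the product.

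A T cell can rearrange its alpha genes on both chromosomes, so a barcode may hold RNA of more than 1 Trav gene; a doublet would too. A second Trav gene with at least 2 UMIs was found in 17% (14.1 to 20.1%) of the barcodes with a Trav UMI in C1. C2 was at 21.6% (20.1 to 23.1%), C3 at 20.7% (19.7 to 21.7%) and C4 at 23.2% (21.7 to 24.7%). Their median depths were 6302, 5990, 9433 and 6651 UMIs, against 6037, 4858, 8304 and 6182 in the others. The leading and the second gene belonged to the same subgroup in 8.33 to 9.38% of these barcodes and were neighbours on the chromosome in 5 to 7.41%.

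The pairs were not spread evenly. In C3, Trav8-2 and Trav9-2 occurred together in 44 barcodes, of which all 44 were Cd8-only and had Trbv20 as the leading beta gene. In C2, Trav12-1 with Trav14-3 occurred in 19 barcodes, all with Trbv29, Trav12-2 with Trav13d-1 in 19, of which 18 had Trbv29, and Trav4-4-dv10 with Trav7-4 in 23, of which 18 had Trbv12-1. The Trav12-1 and Trav14-3 barcodes were all Cd8-only. In C4 the most frequent pair was Trav13d-1 with Trav13n-1, copies of 1 gene, in 13 barcodes, and it occurred in 23 of C3 and 6 of C2. Its leading beta gene was Trbv13-2 in 4 of 11 barcodes in C4 and in 4 of 22 in C3. Trav6-3 with its neighbour Trav7-3, 14.6 kb away, occurred in 9, 18 and 5 barcodes of C2, C3 and C4, with Trbv3 in 7 of the 9 in C2 and Trbv13-2 in 3 of 17 in C3.

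Along chromosome 14 the Trav genes span 1550 kb, from 1793 to 243 kb before Trac, the constant gene, and the J genes lie between. The locus was split into 3 stretches of equal length. The stretch nearest Trac, with 42 of the genes, led 67.8% (61.5 to 73.7%) of Cd4-only and 51.3% (44.1 to 58.4%) of Cd8-only barcodes in C1, 66.7% and 61.5% in C2, 67.8% and 66.6% in C3, and 64.1% and 60.5% in C4. The middle stretch, with 52 genes, led 16.3 to 26.6%, and the far stretch, with 34 genes, 8.93 to 22.1%. All 42 genes of the near stretch lack a copy mark, and all genes marked d or n lie in the other stretches. Genes without a mark, such as Trav1, also lie in the other stretches, and near genes such as Trav16 have marked copies there. Position and copy status thus overlap in part and were not separated here. The part of reads split between copies was not tested. Intervals of the near stretch lay apart between lineages in C1. In C3 those of the other stretches did, with the middle at 20.0% (17.5 to 22.6%) of Cd4-only and 24.5% (23.1 to 25.8%) of Cd8-only barcodes, and the far stretch at 12.2% (10.2 to 14.4%) and 8.93% (8.08 to 9.84%). Trav1, the farthest gene, had its highest share in the Cd8-only barcodes of C1, at 8.54%.

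**Figure D5:**
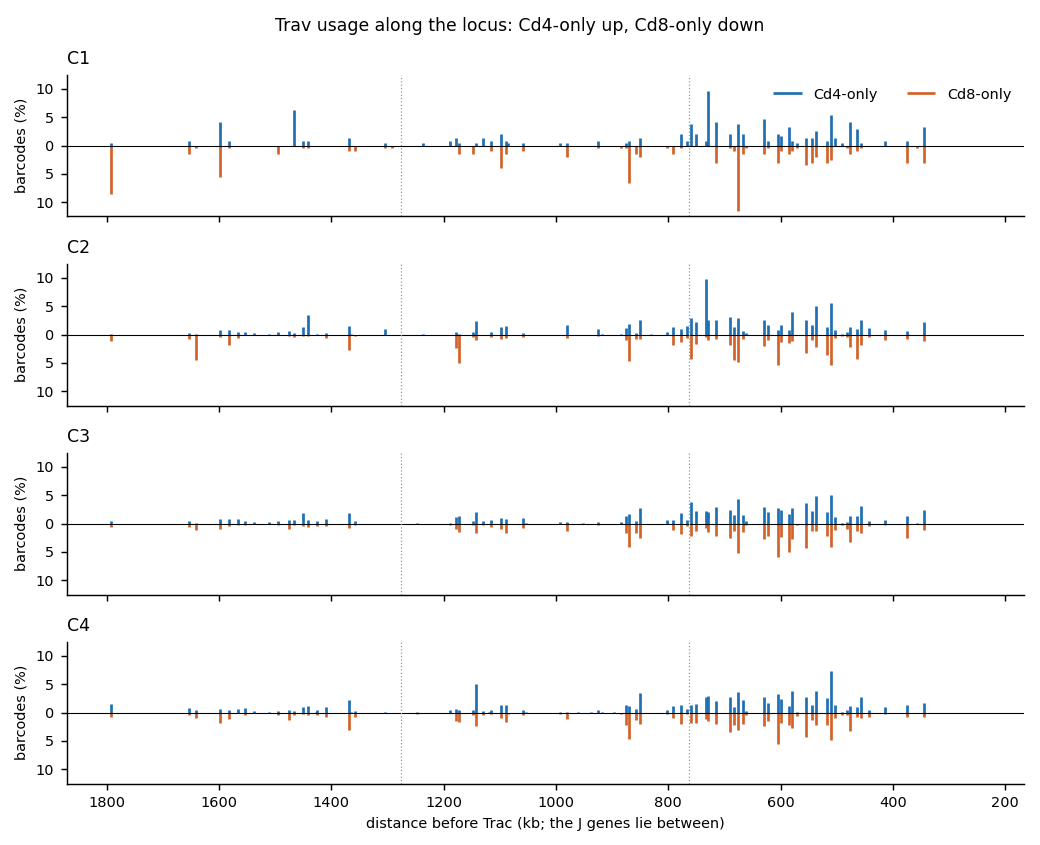
Share of counted barcodes (percent) led by each Trav gene against its distance before Trac (kb), with Cd4-only barcodes drawn upward and Cd8-only barcodes downward, 1 panel per library; dotted lines part the 3 stretches. Most of the usage lies within 759 kb of Trac, where the near stretch led 51.3 to 67.8% of barcodes. No gene of the near stretch is marked d or n. The other stretches hold genes with and without a mark, so position and copy status overlap in part.

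J genes are numbered from the constant gene outward, so a high Traj number lies nearer the V genes. Traj UMIs were rare, found in 4.74 to 8.81% of T barcodes. Among barcodes with both a leading Trav and a leading Traj gene, a Traj number above 30 was found in 2 of 7 with a far-stretch Trav gene, 2 of 8 with a middle and 14 of 24 with a near one in C1. The shares were 20.8% (10.5 to 35.0%) of 48, 42.9% of 56 and 63.8% (55.6 to 71.4%) of 152 in C2. In C3 they were 34.6% (22.0 to 49.1%) of 52, 32.3% of 127 and 71.0% (65.5 to 76.0%) of 303, and in C4 39.5% of 38, 44.6% of 56 and 63.9% of 147. The near stretch had the highest share in all 4 libraries, with intervals apart from the far stretch in C2 and C3. Frequent combinations add to these counts, such as Trav9-1 with Traj17 in C2.

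Invariant receptors were looked for through the genes known to form them. Trav11 joined to Traj18 makes the chain of invariant NKT cells, and Trav1 joined to Traj33 that of mucosal-associated invariant T cells. Trav11 led 1 barcode in C1, which had a Traj18 UMI, 1 in C4, which had none, and 0 in C2 and C3. Its copy Trav11d led none in any library, and its copy Trav11n led 1, 1, 5 and 3 barcodes, none with a Traj18 UMI. Trav1 led 22, 26, 38 and 35 T barcodes in C1 to C4, and none of them had a Traj33 UMI. Of these, 17, 22, 28 and 7 were Cd8-only and 1, 1, 4 and 20 were Cd4-only. A UMI of Zbtb16, a transcription factor of both cell types, was in 1 Trav1 barcode of C1 and 1 of C4. Over all T barcodes, Traj33 was found in 1, 14, 23 and 9 and Traj18 in 4, 14, 8 and 5. Because any Traj UMI was found in only 4.74 to 8.81% of T barcodes, the absence of Traj33 or Traj18 cannot show that these chains are lacking.

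The 10 genes with dv in the symbol were more frequent where the delta constant gene was seen. They led 81.5% (61.9 to 93.7%) of the counted barcodes with a Trdc UMI in C1, 34.5% of 29 in C2, 37.3% (27.0 to 48.7%) of 83 in C3 and 62.9% (49.7 to 74.8%) of 62 in C4. Without a Trdc UMI they led 14.7%, 18.5%, 13% and 18.1%. The intervals lay apart in C1, C3 and C4 and overlapped in C2. The Trav15 subgroup, in which some but not all genes carry dv, led 51.9% (32 to 71.3%), 20.7%, 15.7% and 35.5% of barcodes with a Trdc UMI. Its shares were 1.60%, 0.327%, 0.765% and 0.876% of those without. Trav13-4-dv7 led 18.5%, 6.90%, 10.8% and 17.7% with and 1.95%, 3.27%, 1.26% and 0.911% without. In Cd4-only and Cd8-only barcodes the Trav15 genes were rare: Trav15-1-dv6-1 led 0 to 0.503%, Trav15-2-dv6-2 0 to 0.598%, Trav15d-1-dv6d-1 0 to 1.01%, and Trav15d-2-dv6d-2 none. The other dv gene, Trav21-dv12, led 0.718 to 3.35%, with Cd4-only higher and intervals apart in C3 (2.36% and 1.12%).

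The other receptor genes on a fixed list of 15 were compared between the lineages on summed CPM. At the 2-fold rule, Cd247, the signalling zeta chain, was higher in Cd4-only barcodes in C1 (241 against 113 CPM), C2 (473 against 183) and C3 (343 against 134) and was at 312 against 199 CPM in C4. The gamma constant genes Tcrg-C1, Tcrg-C2 and Tcrg-C4 were higher in Cd8-only barcodes in C2, with Tcrg-C2 at 54.8 against 7.49 CPM. In C1, C3 and C4 they had too few UMIs for the rule but pointed the same way. Tcrg-C2 was there at 17.55, 1.59 and 2.87 CPM in Cd8-only against 3.62, 0.227 and 0.185 in Cd4-only barcodes. All gamma V genes together were at 115, 311, 10.0 and 19.2 CPM in Cd8-only barcodes of C1 to C4. In Cd4-only barcodes they were at 16.3, 43.55, 0.794 and 1.02 CPM. No other gene passed the rule, out of 7, 10, 8 and 8 with enough UMIs. Trac was at 155 to 288 CPM and all Trav genes together at 616 against 451 CPM in C1, 957 against 803 in C2, 844 against 431 in C3 and 782 against 528 in C4, Cd4-only first. Rag1 and Rag2, which cut the V and J genes during development, had no UMI in either lineage of any library. Of the other developmental genes on the list, Dntt, which adds bases at the joins, had 56 UMIs in Cd4-only and 49 in Cd8-only barcodes of C4 (5.18 and 5.40 CPM), 4 and 7 in C3 and none in C1 and C2. Ptcra, the pre-T cell receptor alpha chain, had 20 and 1 in C4 and none in the other libraries.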

How the data were processed

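The deposited matrices of the 4 libraries hold raw whole-number UMI counts for each gene in each barcode and were written by Cell Ranger 4 per the file headers. The submitters' processing notes name STAR 2.7.10a, Cell Ranger 6.1.2 and mm10. The labels' protocols name the BD Rhapsody workflow and the design text names 10x; no source used here says how reads matching several gene copies were treated.

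T barcodes were selected by the thresholds given in the text, with no doublet step and no normalization. Total depth was 48439860, 44798843, 77819179 and 37902916 UMIs in C1 to C4. The leading Trav gene of a barcode was the one with the most UMIs; ties were left out. Shares carry exact Clopper-Pearson 95% intervals, and 2 shares are called apart where these do not overlap. CPM are UMIs per 1000000 UMIs, summed over a lineage. Near stretch, middle and far stretch are 3 parts of the locus of equal length, with positions from RefSeq for GRCm38.p6.

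Named genes were the 8 of highest median share, the most used gene of each library and lineage, the 4 per lineage of largest ratio between libraries (at least 20 barcodes in the highest), up to 10 with intervals apart in 1 direction in at least 2 libraries, Trav1, Trav11, Trav11d and the dv genes. Genes of the frequent combinations and of the locus calls were singled out after their values were seen. The members, lists and rules were chosen with earlier results of these data known. Steps were tested on simulated data. Alternatives are given in the closing section. Tools were Python 3.11.15, numpy 2.4.6, scipy 1.17.1, pandas 2.3.3 and matplotlib 3.10.9.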

Additional observations from a re-analysis of the deposited data

How the results depend on the processing

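No paired analysis was possible because the libraries carry no replicate numbers and could not be tied to groups. The share of T barcodes with a Trav UMI was 62.7% in C1 and 83.8% in C2 with at least 4 CD3 UMIs, 82.9% in C2 with at most 5% mitochondrial UMIs, 63.9% in C1 without barcodes that hold B, macrophage or epithelial markers, and 48.0%, 78.3%, 68.0% and 74.7% in C1 to C4 after thinning; otherwise it stayed within its main interval. Joining symbols into subgroups lowered the effective number of genes to between 11.6 and 13.5. Counting each Trav and Trbv combination once, which by construction caps a gene at the number of Trbv genes, gave leading-5 shares of 22.8% and 23.6% in C1, 15.2% and 15.4% in C2, 14.6% and 10.1% in C3, and 13.3% and 15.1% in C4 (Cd4-only first), left 0 genes with intervals apart in any library, and turned the Cd8-only minus Cd4-only difference to -0.49 percentage points for Trav5-4 in C2 and to -0.0127, -0.655 and -0.0127 for Trav16n, Trav12-2 and Trav13-2 in C3. Without the 10 most frequent combinations, an alternative chosen after seeing the data, the leading-5 shares were 21.5% in C1 Cd8-only, 20.2% in C2 Cd4-only, 18.7% and 21.4% in C3 Cd4-only and Cd8-only, and 18.7% in C4 Cd8-only, the genes apart in C1 to C4 numbered 0, 7, 10 and 2, and Trav13-1 in C1 turned to -0.976; 18 of the 35 calls of the main setting stayed apart. Genes apart numbered 3 in C1 without barcodes of other markers and with 2 lineage UMIs, 7 in C3 after thinning, and in C4 6 with ties split or 2 lineage UMIs and 1 without barcodes with a second Trav gene. With at least 3 UMIs of the leading gene, the leading-5 share of C3 Cd8-only was 27.3%. Under the other 11 settings, 23 to 34 of the 35 calls stayed apart and none turned. The number of counted barcodes limits C1 most, where the interval of a gene at 0 of 199 barcodes reaches 1.84%.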

Other observations

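Barcodes of some frequent Trav and Trbv combinations differed from other barcodes of their library and lineage in genes that mark T cell states. Intervals lay apart for at least 1 of 4 such genes in 15 of the 80 combinations (2, 8, 4 and 1 of 20 each in C1 to C4), and those named here are among the 15. The 4 genes (the chemokine Ccl5, the granzyme Gzmk, the inhibitory receptor Pdcd1 and the lymph node homing receptor Ccr7) and the combinations were singled out after their values were seen, and the barcodes of a combination may come from 1 clone or 1 mouse. In C2 Cd4-only barcodes, Trav9-1 with Trbv13-2 had a Gzmk UMI in 97.9% against 59.0% of the rest and Pdcd1 in 87.2% against 57.4%, at median depths of 4743 and 4621 UMIs. In C1 Cd4-only barcodes, Trav6d-4 with Trbv13-3 had Gzmk in 64.3% (35.1 to 87.2%) of 14 against 5.61% of the rest, at 4543 and 5560 UMIs. B barcodes, given for reference, held a Gzmk UMI in 1 of 25 in C2 and 0 of 94 in C1. None of them held a Pdcd1 UMI, at 32500 and 6280 UMIs.

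In C3 Cd8-only barcodes, Trav13-2 with Trbv20 had Gzmk in 0.855% of 117 against 10.2% of the rest, Ccl5 in 99.2% against 94.3% and Ccr7 in 80.3% against 69.2%, at 10300 and 9149 UMIs. Trav9-2 with Trbv20 had Ccl5 in 56.2% (41.2 to 70.5%) of 48 against 94.9% of the rest, and Ccr7 in 91.7% against 69.2%, at 10750 and 9151 UMIs. C3 B barcodes had a Ccl5 UMI in 12.8% and a Gzmk UMI in 0.147%, at 5209 UMIs. No test was made.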
